A study of Mus musculus with 2 samples.

Results

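The cytosolic DNA and RNA sensing core was described as 10 genes of the deposited gene table, which lists 54532 genes. It comprises 8 genes taken by symbol (Tbk1, Irf3, Mavs, Ifih1, Ddx58, Tlr3, Adar and Trex1), together with STING and cGAS, which the table lists as Tmem173 and Mb21d1. All 10 were found, all are annotated as protein-coding, and they lie on 8 chromosomes. The RNA came from 4T1 cells, a line grown from a mammary tumour of the BALB/c mouse, and was sequenced as a poly(A) library. The series labels a Cd28 knockout sample and a wild-type sample, 1 of each, and gives no other treatment, time or clone for either. Only the column headed KO bears the name of a sample. The other column of per-sample values carries a name found in neither sample's labels and was not used, so the values below are levels in 1 knockout library with no replicate. No difference between knockout and wild type was measured.

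Cells recognise misplaced nucleic acid through a small set of sensors that converge on the same kinase. Double-stranded DNA in the cytosol activates the enzyme cGAS, whose product cGAMP binds the adaptor STING on the endoplasmic reticulum. Double-stranded RNA is bound by the helicases RIG-I (Ddx58) and MDA5 (Ifih1), which act through the mitochondrial adaptor MAVS, or in endosomes by TLR3, which acts through the adaptor TRIF (Ticam1). STING, MAVS and TRIF each bring the kinase TBK1 to the transcription factor IRF3, which then switches on interferon beta and other antiviral genes. ADAR1 (Adar) edits the cell's own double-stranded RNA, and the exonuclease TREX1 degrades its own stray DNA, and both thereby keep these sensors quiet. In tumour cells the pathway is best known as a route from DNA damage to interferon and to immune recognition, and it is often muted.

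Of the 10 members, 9 were detected, meaning that they had at least 10 reads, against 52.2% of all protein-coding genes. The library held 15565990 counted reads, and the members together took 6561 of them. Levels between genes are given as TPM, the reads per base of the deposited gene length, scaled so that all genes sum to 1000000. Levels of a single gene are also given as CPM, the reads per 1000000 counted reads. Intervals are exact Poisson 95% intervals and cover counting error only. A percentile is the percentage of the 11497 detected protein-coding genes with a lower TPM, whose median was 24.4 TPM. Above that median lay 5 of the 10 members, a level reached by 26.1% of all protein-coding genes, and the median of the 10 was 27.1 TPM (percentile 53.4). The adaptor Mavs was the highest and the sensor Ifih1 the lowest of the detected members, 10.4-fold apart. Trex1, the one member without reads, shares every base of its exons with another gene and is described at the end. It enters the counts and the median of the 10 as 0 TPM, although its count does not show whether it was transcribed.

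**Figure D1:**
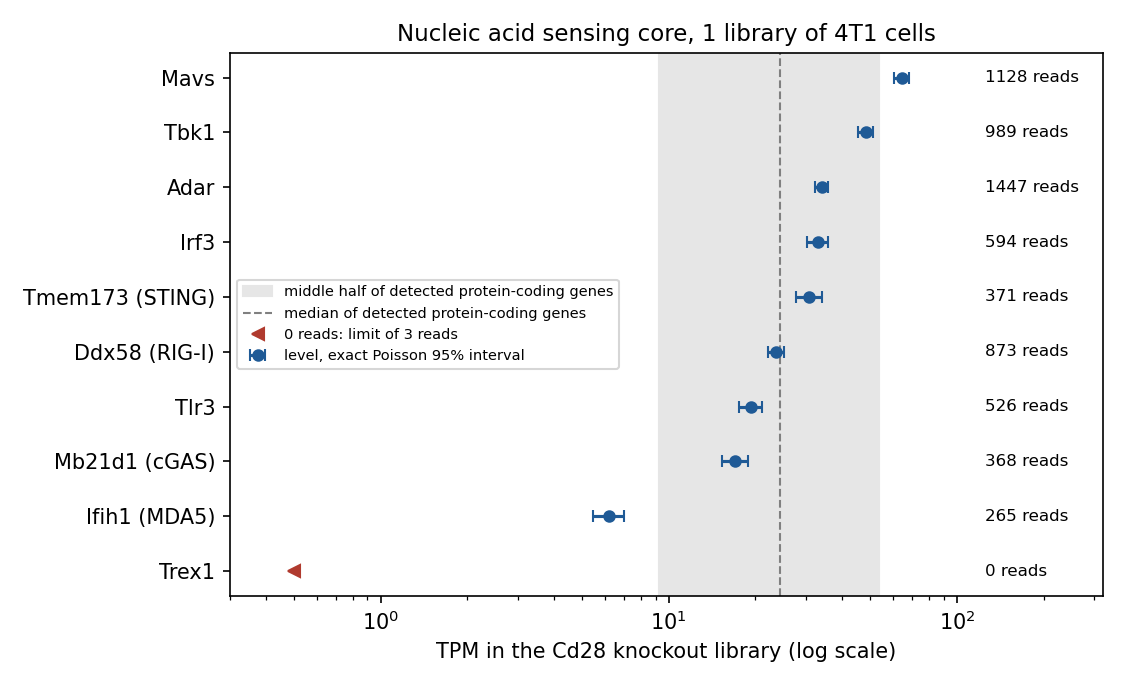
Level of each member in the Cd28 knockout library in TPM on a log axis, with the read count at the right. Points are values and bars are exact Poisson 95% intervals. The grey band is the interquartile range of detected protein-coding genes and the dashed line their median of 24.4 TPM. Mavs at 64.3 TPM lies above the band, Ifih1 at 6.19 TPM below it, and the arrow of Trex1 marks the limit of 3 reads, 0.499 TPM.

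The first sequence shown is one that Trex1 shares with a neighbouring gene, which bears on its count. It is the first 90 coding bases of Trex1-201 (chr9:109058832-109058921, minus strand, GRCm38, GENCODE vM21), with the start codon in capitals. The same 90 bases occur without a mismatch in 3 of the 9 annotated transcripts of the neighbouring gene Atrip, and in no transcript of any other gene.
Trex1: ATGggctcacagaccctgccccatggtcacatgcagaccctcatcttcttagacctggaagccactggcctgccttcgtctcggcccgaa

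For both RNA helicases the sequence shown is a match to the interferon-stimulated response element (ISRE), a binding motif of interferon regulatory factors, printed as context for 2 genes known to be interferon-inducible. Promoter windows of 300 bases, 250 before to 50 after the start, were taken from RefSeq (GRCm38.p6) for 9 of the 10 members, with 12 windows in all because Adar and Trex1 have several starts. Tmem173 has no entry. The letters GAAA, any 2 bases and GAAA again were searched on both strands. They were found in the windows of Ifih1 (chr2:62646206-62646235, minus strand) and Ddx58 (chr4:40239804-40239833, minus strand), and 3.44% of all 32851 windows in the table hold them. The match, in capitals, spans bases 33 to 42 after the start of Ifih1, and bases 3 to 12 of Ddx58 on the opposite strand.
Ifih1: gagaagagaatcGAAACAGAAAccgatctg
Ddx58: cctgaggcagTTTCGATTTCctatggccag

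None of the other 10 windows of members held these letters. The letters TATAAA, found in 13.6% of all windows, were in that of Ddx58 alone among the members. By content of CpG, the window of Tbk1 had 37 such pairs and an observed-to-expected ratio of 1.05 (percentile 96.3 of all windows), whereas that of Tlr3 had 10 and a ratio of 0.524 (percentile 59.6). The lowest ratio among the members' windows was 0.2 (percentile 28.7), in a window of Trex1. A match or its absence describes the letters only, and no value here bears on their use.

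Among the sensors, RIG-I was the highest and MDA5 the lowest. Ddx58 (ENSMUSG00000040296, chromosome 4, 40203773 to 40239828, minus strand, 18 merged exons, mm10), the sensor of RNA with a triphosphate end, had 873 reads. This is 56.1 CPM (52.4 to 59.9) and 23.6 TPM (22.1 to 25.2), at percentile 48.7, an interval that includes the median of detected genes. Ifih1 (ENSMUSG00000026896, chromosome 2, 62595798 to 62646255, minus strand, 17 merged exons), the sensor of long double-stranded RNA, had 265 reads, or 17 CPM (15 to 19.2) and 6.19 TPM (5.47 to 6.98), at percentile 18.6 (17.1 to 20.5). Per base of gene length, Ddx58 was 3.82 times as high as Ifih1 (exact conditional binomial 95% interval 3.32 to 4.39, counting error only). No other annotated exon overlaps either gene, and 100% of the 100-base stretches of their longest coding transcripts occur in no other gene, so their reads are not shared between the paralogs. Dhx58, the third helicase of the family (LGP2), which lacks the signalling domains, had 14 reads and 0.816 TPM.

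Tlr3 (ENSMUSG00000031639, chromosome 8, 45395665 to 45411080, minus strand, 8 merged exons) had 526 reads, or 33.8 CPM (31 to 36.8) and 19.3 TPM (17.6 to 21), at percentile 42.7. The antisense gene Gm45542 covers 7.32% of its exon length and had 0 reads. Of the Gm45542 exon length, 87% lies under Tlr3 exons, and how shared reads were counted is not given. The 0 therefore does not show whether Gm45542 was transcribed, and reads of the shared stretch cannot be attributed. Mb21d1 (ENSMUSG00000032344, chromosome 9, 78430526 to 78443237, minus strand, 5 merged exons), which encodes cGAS, had 368 reads, or 23.6 CPM (21.3 to 26.2) and 17 TPM (15.3 to 18.8), at percentile 39.1. The pseudogene Gm8093 covers 4.87% of its exon length on the opposite strand, also with 0 reads. Per base of deposited length Ddx58 was 1.23 times as high as Tlr3 (1.1 to 1.37), and 1.89 times (1.69 to 2.11) per base of 1 coding transcript per gene. The ratio of Tlr3 to Mb21d1 was 1.13, with an interval of 0.989 to 1.3 that includes 1, and 1.31 (1.15 to 1.5) with the length of 1 transcript. Thus 1 sensor for RNA in endosomes and 1 for DNA stood between the helicases in the order of levels. By deposited length all 4 sensors had a TPM below the 24.4 of the median detected gene. The interval of Ddx58 (22.1 to 25.2) includes that value. Without division by length Ddx58 lay above the median, at percentile 61.8, and it also did with the length of 1 transcript.

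Of the adaptors, Mavs exceeded STING. Mavs (ENSMUSG00000037523, chromosome 2, 131234063 to 131248025, plus strand, 9 merged exons) had 1128 reads, or 72.5 CPM (68.3 to 76.8) and 64.3 TPM (60.6 to 68.2), at percentile 79.6 (78 to 80.9). Tmem173, encoding STING (ENSMUSG00000024349, chromosome 18, 35733678 to 35740554, minus strand, 7 merged exons), had 371 reads, or 23.8 CPM (21.5 to 26.4) and 30.7 TPM (27.7 to 34), at percentile 57.7. Mavs was 2.09 times as high as Tmem173 per base of length (1.86 to 2.36) and 2.99 times as high as Ticam1 (2.64 to 3.38), which had 338 reads and 21.5 TPM. Transcripts of every adaptor were thus detected along with those of its sensor, and protein was not measured. Mb21d1 stood at 0.553 of Tmem173 (0.478 to 0.641), and Tlr3 at 0.894 of Ticam1 (0.779 to 1.03), whereas Mavs was 2.72 times as high as Ddx58 (2.49 to 2.98). With the length of 1 transcript the last ratio was 1.64 (1.5 to 1.79), and that of Tlr3 to Ticam1 was 1.06 (0.92 to 1.21). By either length the interval of Tlr3 to Ticam1 includes 1. Tmem173 is the only member whose deposited length, 2302 bases, differs from the merged exons of GENCODE vM21, 2741 bases.

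The shared kinase and its transcription factor were both above the median. Tbk1 (ENSMUSG00000020115, chromosome 10, 121546455 to 121586787, minus strand, 22 merged exons) had 989 reads, or 63.5 CPM (59.6 to 67.6) and 48.2 TPM (45.3 to 51.3), at percentile 71.7. Irf3 (ENSMUSG00000003184, chromosome 7, 44997648 to 45002848, plus strand, 7 merged exons) had 594 reads, or 38.2 CPM (35.2 to 41.4) and 32.9 TPM (30.3 to 35.7), at percentile 59.7. Bcl2l12, which starts from the same region on the opposite strand, covers 2.56% of the Irf3 exons and had 72 reads. Each stood above the relative that can act in its place. Tbk1 was 4.16 times as high as Ikbke (3.75 to 4.63), the inducible kinase of the same family, at 548 reads and 11.6 TPM; with the length of 1 transcript this ratio was 1.94 (1.75 to 2.16). Irf3 was 46.5 times as high as Irf7 (27.5 to 85.7), the interferon-induced factor, which had 14 reads and 0.707 TPM.

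Of the genes that hold back self nucleic acid, Adar took the most reads of any member, 1447, which is 22.1% of the members' reads and 93 CPM (88.2 to 97.9). Corrected for its 8118 bases of exon it stood below Mavs and Tbk1, at 34 TPM (32.3 to 35.8) and percentile 60.9. Adar (ENSMUSG00000027951, chromosome 3, 89715022 to 89753446, plus strand, 16 merged exons) has 9 annotated transcripts. Counts per gene do not separate the interferon-induced long form p150 from the constitutive form p110, which start at different promoters. The exons of Chrnb2, a receptor subunit gene on the opposite strand with 94 reads, cover 16.8% of its exon length. The strand setting of the counting is not given in the sources used here, so reads of the stretch under Chrnb2 cannot be attributed. Adarb1, which encodes the second editing enzyme ADAR2, had 617 reads and 10.4 TPM, and Adar was 3.26 times as high (2.96 to 3.58).

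In the order Mavs, Tbk1, Adar, Irf3, Tmem173, Ddx58, Tlr3, Mb21d1, Ifih1, from high to low by TPM, 5 of the 8 neighbouring pairs differed beyond counting error. The pairs that did not were Adar and Irf3 (ratio 1.03, 0.938 to 1.14), Irf3 and Tmem173 (1.07, 0.939 to 1.22, but 1.81, 1.59 to 2.07, with the length of 1 transcript), and Tlr3 and Mb21d1 (1.13, 0.989 to 1.3). All these ratios use the full exon length. Exons of other genes cover 16.8% of the Adar exons and 2.56% of the Irf3 exons. Whether reads there were counted is not known, so the ratio of Adar to Irf3 without those stretches was not measured. The largest step was from Mb21d1 to Ifih1, 2.75-fold (2.34 to 3.23). When counts were divided by the length of 1 coding transcript per gene in place of the merged exons, Irf3 came above Adar (292 against 246 reads per kilobase) and Ddx58 above Tmem173 (225 against 161), and all 8 neighbouring pairs of that order differed beyond counting error. Mavs, Tbk1, Tlr3, Mb21d1 and Ifih1 kept their places.

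The pathway around the members was examined in 8 lists of genes grouped by step. The lists include the members, and some genes stand in several lists, so the counts and medians of the lists are not independent. Over all protein-coding genes, for comparison with the counts below, 52.2% were detected and 26.1% lay above the median TPM of detected ones. In the DNA sensing list, 22 of 24 genes were detected and 15 lay above the median TPM. The highest beside the members were Banf1, a chromatin protein that keeps cGAS off nuclear DNA (330 TPM), the RNA-binding protein gene Hnrnpa2b1 (262) and G3bp1, a stress granule protein that promotes cGAS activation (195). Trex1 and Enpp1, which encodes the hydrolase of extracellular cGAMP, were the 2 not detected, with 0 and 8 reads. The 0 of Trex1, also counted in the list of self RNA and DNA control, does not show whether it was transcribed. Of 17 genes for STING trafficking and turnover 16 were detected and 14 lay above the median, among them the oligosaccharyltransferase Stt3a (126 TPM) and the cargo receptor Surf4 (119), while the palmitoyltransferase gene Zdhhc15 had 0 reads.

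Among the RIG-I-like receptors and their regulators, 20 of 21 genes were detected and 14 lay above the median. The phosphatase genes Ppp1ca and Ppp1cc, whose products remove the inhibitory phosphates of RIG-I and MDA5, stood at 484 and 164 TPM, and Pcbp2, which directs MAVS to degradation, at 185. Trim25, the ubiquitin ligase reported to activate RIG-I, had 91 TPM. Of 15 genes for endosomal Toll-like receptors 11 were detected and 5 lay above the median, against 52.2% and 26.1% of all protein-coding genes. The highest were the proteases Ctsb (170 TPM) and Lgmn (157) and the chaperone Hsp90b1 (144). Tlr7, Tlr8 and Tlr9, the sensors of single-stranded RNA and of CpG DNA, had 0 reads each, for which the one-sided 95% limit of 3 reads is 0.193 CPM (the two-sided interval ends at 0.237). Unc93b1, which carries these receptors and TLR3 to endosomes, had 4 reads.

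Every one of the 32 genes of the TBK1 and IRF3 axis was detected and 19 lay above the median, with the NF-kB subunit Rela at 179 TPM, the phosphatase Ptpn11 at 116 and Jun at 111. The TBK1 scaffolds Tank, Azi2 and Tbkbp1 lay close together, at 24.7, 24.2 and 23.3 TPM. In the list of self RNA and DNA control 18 of 20 genes were detected and 12 lay above the median. Rnaseh2c, a subunit of RNase H2, led at 100 TPM, followed by the helicase Dhx9 (92.5) and the necroptosis effector Mlkl (64.6), whereas Ripk3, which activates MLKL, had 1 read. Of the RNase H2 subunits, Rnaseh2a had 51.2 and Rnaseh2b 3.94 TPM.

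Of 23 IRF3 target transcripts 11 (47.8%) were detected, against 52.2% of all protein-coding genes. In this list 8 had 0 reads and 3 lay above the median, a level reached by 26.1% of all protein-coding genes. With 12 of its genes under 10 reads, the median of this list was 0.431 TPM, at percentile 0.948 among detected genes only. The medians of the other 7 lists ranged from 17.4 to 49.6 TPM. Over all protein-coding genes 37.4% had 0 reads. Ifnb1, Ifna4, Ifna2 and Ifnl2, all interferon genes, had 0 reads each. The highest were Zc3hav1, the antiviral RNA-binding protein ZAP (57 TPM), Isg20, an exonuclease (29.2), and Ifit2 (28.2, from 581 reads). Ifit2 differed from its neighbours in the family, since Ifit3 had 22 reads, Ifit1 had 6 and Ifit3b had 0. All 7 genes of the type I interferon receptor and its signal were detected. Above the median lay 2 of the 7, close to the 26.1% of all protein-coding genes. Jak1 had 52.4 TPM, Ifnar1 39.1 and Tyk2 23.

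**Figure D2:**
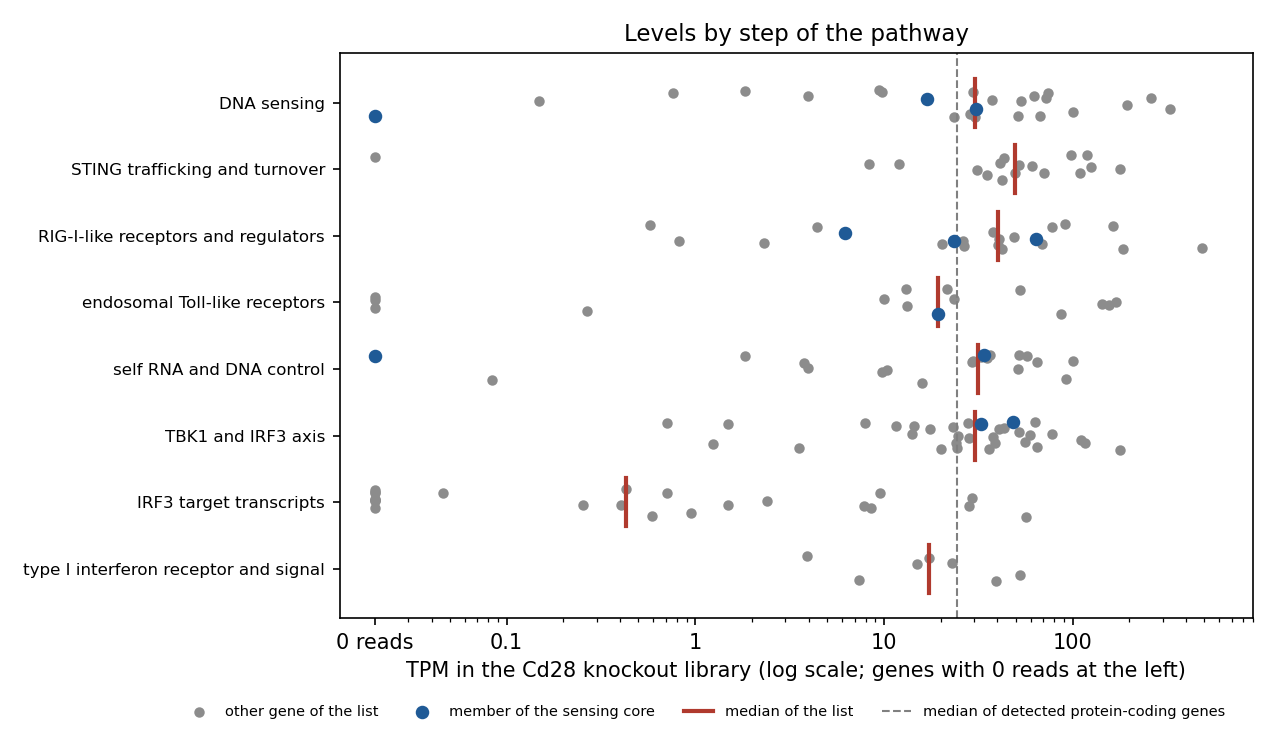
Level of each gene in 8 lists of the pathway, in TPM on a log axis, in the Cd28 knockout library. Blue points are members, grey points other genes of the list, red bars list medians and the dashed line the median of detected protein-coding genes. The bar of the IRF3 target transcripts, at 0.431 TPM, lies left of those of the 7 other lists, at 17.4 to 49.6 TPM.

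The library carried the markers listed for 4T1 carcinoma and few of immune cells, which use the same sensors. Whether the carcinoma markers tell 4T1 from other lines was not tested. Over all protein-coding genes 52.2% were detected and 26.1% lay above the median. All 7 markers of 4T1 carcinoma were above the median, led by Krt18 (2183 TPM), Vim (1950) and Krt8 (1005). Of 9 macrophage and dendritic cell markers 1 was detected, the lysosomal gene Cd68, with 555 reads and 84.2 TPM (percentile 85). Ptprc, Adgre1, Itgax and Siglech had 0 reads. The 7 T, NK and B cell markers, among them Cd3e, Cd3g, Cd4 and Cd8a, had 0 reads in all. Of 6 fibroblast markers 2 were detected, Pdgfra (16 TPM) and Col1a1 (1.71), with Col3a1, Pdgfrb and Dcn at 0 and Col1a2 at 5 reads. None of 5 endothelial markers was, with Pecam1, Kdr and Tie1 at 0, Tek at 6 and Cdh5 at 1. Cd28 itself, the gene named as knocked out, had 8 reads over the whole gene, which does not check the label without a wild-type level.

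Trex1 (ENSMUSG00000049734, chromosome 9, 109057933 to 109059734, minus strand, 3 merged exons, 1147 bases) had 0 reads. The one-sided 95% limit of a count of 0 is 3 reads, or 0.193 CPM and 0.499 TPM, and the two-sided interval ends at 0.237 CPM and 0.613 TPM. Both apply only to reads that the counting could assign to the gene. All of its exon length (100%) lies under exons of Atrip, the gene for the partner protein of the checkpoint kinase ATR, which is transcribed in the same direction from an earlier start and shares the annotated end. Atrip had 559 reads, or 35.9 CPM (33 to 39), and the shared bases make up 16% of its merged exons. The whole coding part of Trex1-201, 942 bases, is contained in 2 of the 9 annotated Atrip transcripts. Stretches of 100 bases found in no other gene made up 8.83% of Trex1-201, against 83% for Adar and at least 97.4% for the other 8 members.

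**Figure D3:**
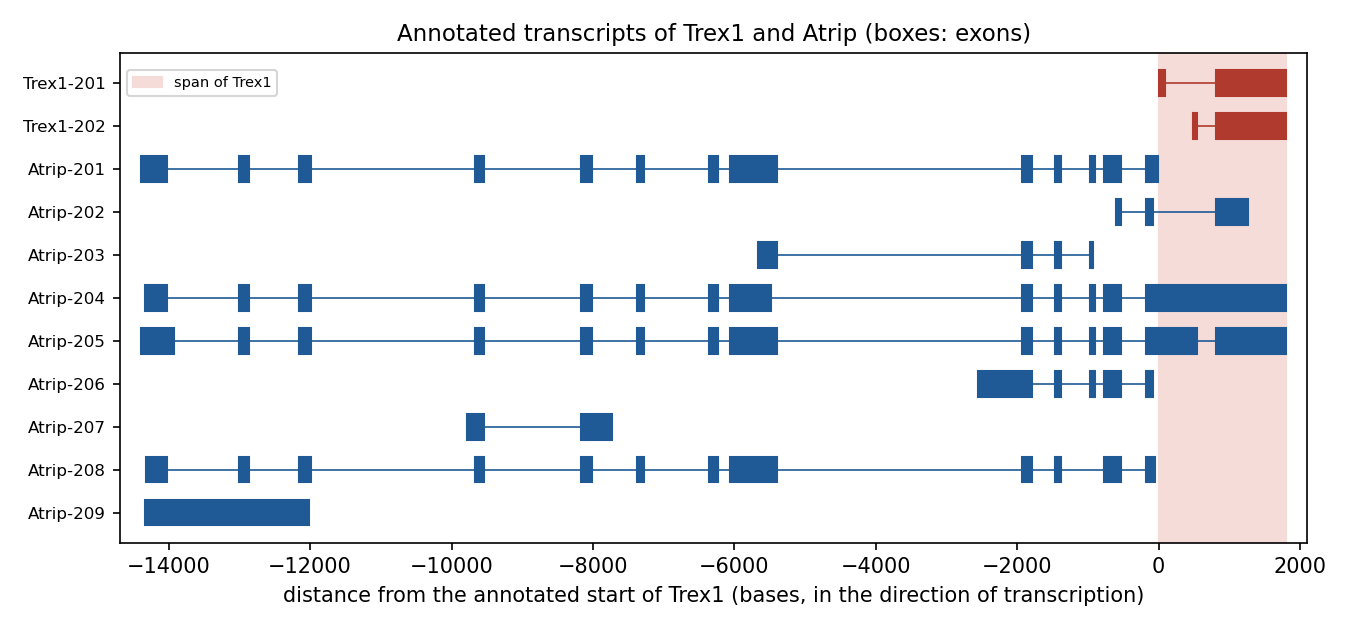
Annotated transcripts of Trex1 (red) and Atrip (blue) in GENCODE vM21, drawn to scale by distance in bases from the annotated start of Trex1, with exons as boxes. The shaded span is that of Trex1, and exons of Atrip transcripts cover all 1147 bases of its merged exons.

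The same overlap was then looked up over all protein-coding genes of the annotation. Of the 177 whose exons lie wholly under exons of other genes, on either strand, 171 (96.6%) had 0 reads and 3 (1.69%) were detected, with a highest count of 89. Where overlap was wholly on the same strand, as for Trex1, 129 of 133 (97%) had 0 reads. Of the 15485 genes with no overlapped base 43.6% had 0 reads, and of the 5208 with overlap of up to 25%, 18.3%. featureCounts by default leaves a read uncounted when it falls on exons of more than 1 gene; whether that default was used is not given in the sources used here. The count of Trex1 therefore does not show whether the gene was transcribed, and transcription of Trex1 in these cells was not tested. The other 4 members with any overlapped exon base (Adar, Tlr3, Mb21d1 and Irf3) were overlapped on the opposite strand over at most 16.8% of their exons, and the remaining 5 on none.

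**Figure D4:**
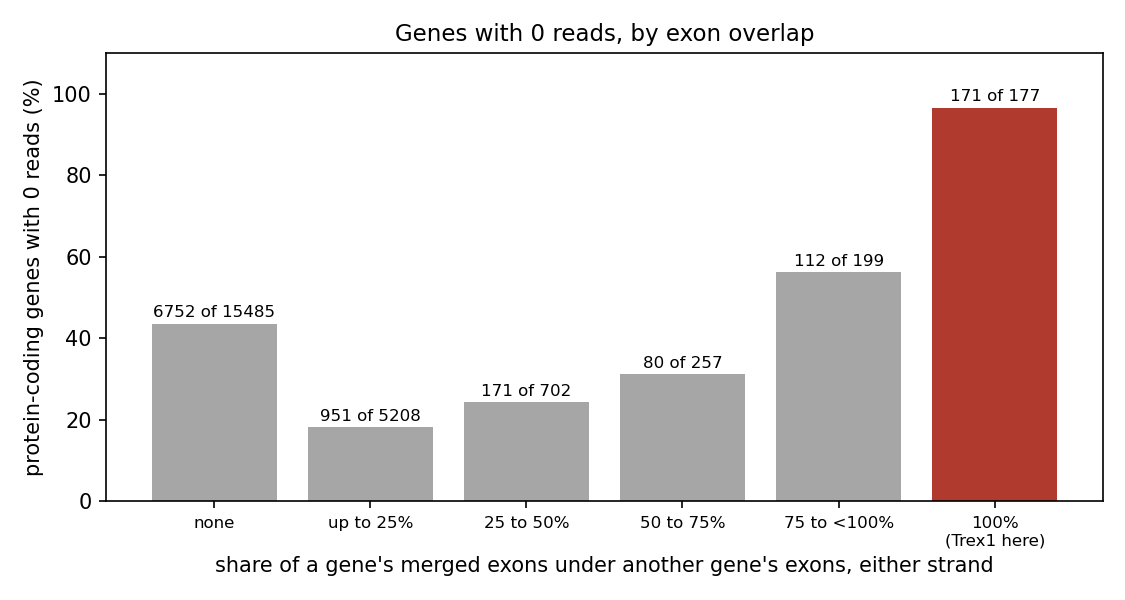
Percentage of protein-coding genes with 0 reads in the Cd28 knockout library, by how much of the merged exon length lies under exons of another gene on either strand, with counts above the bars. In the red bar, which holds Trex1, 171 of 177 genes had 0 reads, against 6752 of 15485 genes without overlap.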

How the data were processed

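Poly(A) RNA was sequenced from 1 knockout and 1 wild-type sample of 4T1 cells. The authors deposited raw read counts per gene with gene length in bases, made with CASAVA, HISAT2 2.0.5 and featureCounts 1.5.0-p3 on mm10, per the submitters' processing notes. The other column of per-sample values (1) was not used. CPM and TPM were computed here from the deposited counts and length. No test between conditions was possible. Intervals are exact Poisson for a level and conditional binomial for a ratio, at 95%; reads carry no molecular identifiers. Depth was 15565990 reads. Exon overlap and shared stretches came from GENCODE vM21 (GRCm38, the same build), which holds all 10 members, 9 with the deposited length; 1 coding transcript per gene, that with the longest coding part, was used. The interval code was checked on simulated Poisson counts and the overlap code on a small hand-made case. Whether these reads follow a Poisson distribution was not tested. Members and lists were chosen with earlier results of these data known. Named were all members, the 3 highest other genes of each list by TPM, up to 4 with 0 reads, genes overlapping members, and Cd28; further genes named were chosen with their values in view, and 2 genes of the lists are not reported here by name. With 1 library no gene could be ranked by likeness of pattern. Python 3.11.15, numpy 2.4.6, pandas 2.3.3, scipy 1.17.1 and matplotlib 3.10.9 were used.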

Additional observations from a re-analysis of the deposited data

How the results depend on the processing

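No paired analysis was possible because the values come from a single library, and leaving out a replicate was likewise impossible. The variation between cultures was not measured. The count of 9 detected members was the same at 1, 3 and 100 reads. The number above the median was 5, and between 5 and 7 with the alternatives tried. Which members made up the 5 was less stable. Without division by length, or with the length of 1 transcript, Ddx58 lay above the median and Tmem173 below it. Totals without mitochondrial genes or over protein-coding genes only left each CPM within its counting interval. Ranking among genes with at least 1 read raised the percentiles to 83 for Mavs, 76.4 for Tbk1, 67.4 for Adar, 66.4 for Irf3, 64.8 for Tmem173, 57.3 for Ddx58, 52.2 for Tlr3, 49.3 for Mb21d1 and 32.1 for Ifih1, which follows from adding low genes. Without length correction they were 70.3 for Mavs, 65.9 for Tbk1, 77.3 for Adar, 50.3 for Irf3, 36.7 for Tmem173, 61.8 for Ddx58, 46.5 for Tlr3, 36.5 for Mb21d1 and 29.2 for Ifih1. With the length of 1 transcript, an alternative chosen after seeing the data, 8 of 8 neighbouring pairs differed beyond counting error in place of 5, and with no division by length Adar came first and 7 of the 9 detected members took another rank. The ratio of Tmem173 to Ddx58 turned from 1.3 to 0.716 with the length of 1 transcript. Of the other 18 ratios, 12 moved beyond and 6 stayed within their counting intervals. At 100 reads 4 IRF3 target transcripts were detected in place of 11. The other 23 recounts of lists were within 1.5 times.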

Other observations

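Neighbouring branches of nucleic acid sensing were read from 3 lists written after the members' values were seen, with no test. Of 11 genes for transport of cGAMP across membranes, 8 were detected and 6 lay above the 24.4 TPM of the median detected gene. Over all protein-coding genes these shares were 52.2% and 26.1%. The volume-regulated channel subunits Lrrc8c and Lrrc8b had 48.5 and 35.6 TPM and the exporter Abcc1 had 33, against 6.33 TPM for the obligate subunit Lrrc8a and 0 reads for Lrrc8e. Slc19a1, a folate carrier reported to import cGAMP in human cells, had 25 TPM, whereas Slc46a2 and the connexin gene Gjb2 had 0 reads.

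Of 12 inflammasome genes 7 were detected (58.3%, against 52.2% of all protein-coding genes) and 1 lay above the median, the pore-forming Gsdmd at 31.8 TPM. The DNA sensor Aim2 had 14 reads, its adaptor Pycard 15, Casp1 39 and Il1b 2. Of 11 genes that silence retroelements all were detected and 9 lay above the median, led by the corepressor Trim28 (359 TPM), the maintenance methyltransferase Dnmt1 (204) and its partner Uhrf1 (135).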
